A study of Mus musculus with 4 samples.

Results

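The levels of 10 genes of fat cell differentiation and lipid storage were followed in mouse embryonic fibroblasts (MEFs) with or without pigment epithelium-derived factor (PEDF), a secreted protein of the serpin family. The genes were taken by symbol from the deposited table of 55487 genes, and all 10 were found once. They were the transcription factor genes Pparg, Cebpa, Cebpb and Cebpd, the lipid droplet coat gene Plin2, the lipase genes Lpl, Lipe and Mgll, and the fatty acid-binding protein genes Fabp4 and Fabp5. All 10 held at least 10 counts over the libraries, as did 19384 genes of the table. The MEFs were wild type, were prepared from C57BL/6J embryos and were grown in medium with serum. Their passage was 2 by the sample labels, while the article on these data gives a later one, P3. PEDF, which had been purified from mammalian cells, was given to 2 cultures at 100 ng/mL for 24 h, and 2 control cultures received none. Experiments 1 and 2 each contributed 1 control and 1 PEDF library, and their MEFs came from different embryos. The libraries of polyadenylated RNA held 14722848 to 18144640 counts, and libraries of this kind report RNA levels and not proteins or stored fat. In bulk RNA, fewer cells of a type and less RNA per cell cannot be told apart.

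Adipogenesis, the formation of fat cells, starts with the early factors C/EBPβ and C/EBPδ, which raise PPARγ and C/EBPα. The last pair maintain each other and turn on the genes of the fat cell, such as Fabp4, Lpl and Lipe. Stored triglyceride lies in droplets coated by perilipins, and is cut stepwise by adipose triglyceride lipase (ATGL, encoded by Pnpla2), hormone-sensitive lipase (Lipe) and monoacylglycerol lipase (Mgll). PEDF is known to bind ATGL, which places these genes next to its signaling. In MEFs, however, the article on these data reports no change of ATGL protein with PEDF. Macrophages also express several of the 10 genes, among them Lpl, Plin2, Fabp5, Cebpa and Cebpb.

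Per length, the 10 genes spanned a wide range in MEFs. Levels between genes are given as the deposited TPM, in which counts are scaled by gene length and library size. Cebpb (67.5 TPM as the mean of the 4 libraries), Plin2 (60.8) and Fabp5 (55.7) were the highest, and the ranges of neighbors in this order overlapped over the libraries. Cebpd (38.5) came next, followed by Cebpa (15.9) and Lpl (10.6), each with a range apart from its neighbors. Mgll (5.27), Lipe (3.78) and Pparg (3.04) followed with ranges that overlapped from each to the next. Fabp4, a marker of mature fat cells, was lowest at 0.576 TPM, above 12.3% of the tested genes, whereas Cebpb lay above 88.4% of them. TPM divide by the summed exons of all annotated transcripts, which cover the whole span of 4489 bp for Fabp4 and 3567 of 4060 bp for Fabp5. The order of the levels depends on these lengths, and the counts do not.

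**Figure D1:**
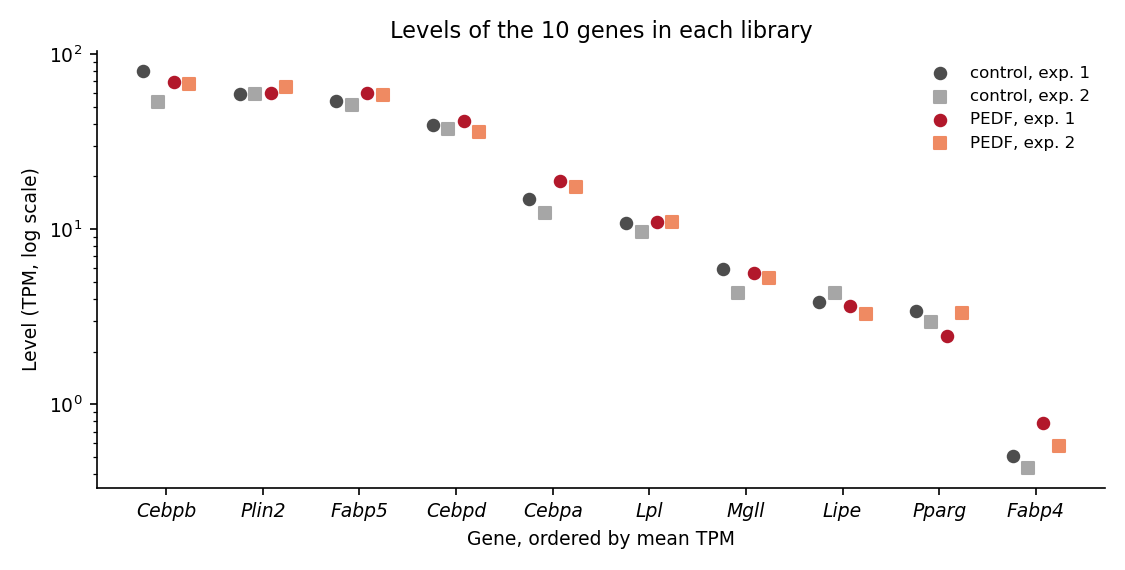
Level of each of the 10 genes (TPM, log scale) in the 4 libraries, with genes ordered by their mean. Each symbol is 1 library; Cebpb, Plin2 and Fabp5 lie between 51.0 and 80.3 TPM, and Fabp4 stays below 0.786 TPM in every library.

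Among the transcription factor genes, Cebpa was higher with PEDF in both experiments, while Cebpb, Cebpd and Pparg went in opposite directions in experiments 1 and 2. Differences of a single gene were measured in CPM (counts scaled by library size, with sizes adjusted by edgeR's TMM factors), and the test was edgeR's quasi-likelihood test over the 19384 genes with Benjamini-Hochberg adjustment. It was run without a term for the experiment, as the study names none. It was also run with the experiment as a block, because the experiments drew on different embryos.

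Cebpa, the factor of terminal fat cell differentiation, is found on chromosome 7 (35119293 to 35121928, plus strand, GRCm38). Its control libraries had 13.8 CPM in experiment 1 and 11.3 in experiment 2 (mean 12.5 ± 1.81, SD, n = 2), from 204 and 201 counts. The PEDF libraries had 18.2 and 15.9 CPM (17.0 ± 1.64, SD, n = 2), from 283 counts each. Both PEDF libraries were thus above both control libraries. The level was 31.7% higher with PEDF in experiment 1 and 41.0% higher in experiment 2. Without the block, the fitted log2 fold change was 0.45 (standard error 0.15), a 1.36-fold difference with a 95% interval of 1.10 to 1.69, and its adjusted p in edgeR was 0.696. With the block, the log2 fold change was 0.45 (standard error 0.13, 1.14-fold to 1.62-fold) and the adjusted p was 0.0197. Once each library had also been corrected for its trends with gene length and GC content, it was 0.42 (standard error 0.13) with an adjusted p of 0.0473. DESeq2 with the same block gave 0.45 with a larger standard error of 0.25, an unadjusted p of 0.0746 and no adjusted p. The call of Cebpa thus held in edgeR with the block and not in the other tests. The antisense gene Gm45091 overlaps its first 313 bp, with 11 to 25 counts in a library.

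The promoter of Cebpa is shown because Cebpa had the lowest adjusted p of the 10 genes for PEDF against control in edgeR with the block. The 250 bases before its RefSeq start (GRCm38.p6, chr7:35119043-35119292, plus strand) are given 5′ to 3′, with the only match to the motifs searched, a TATA box (TATAAA), in capitals at position -30 from the start.
Cebpa: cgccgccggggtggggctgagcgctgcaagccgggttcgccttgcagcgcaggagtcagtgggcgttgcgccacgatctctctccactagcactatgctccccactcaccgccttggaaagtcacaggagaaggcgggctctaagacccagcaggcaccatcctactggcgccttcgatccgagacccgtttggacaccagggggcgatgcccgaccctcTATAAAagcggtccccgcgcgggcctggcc
The motifs searched on both strands were the hexamer AGGTCA bound by PPARs, a direct repeat of it with a single base between, the C/EBP site TTGCNNAA, the cyclic AMP response element TGACGTCA and its core TGACG, the CCAAT box, the GC box GGGCGG, the TATA box TATAAA and the E-box CACGTG. A core is part of each full cyclic AMP response element and a hexamer part of each repeat, so these overlap. TATAAA was found in 12.4% of the 32851 promoter stretches of the same length in the table.

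Cebpb, an early adipogenic factor that inflammatory signals also raise, is found on chromosome 2 (167688915 to 167690418, plus strand). It had 42.9 CPM in the control library of experiment 1 and 27.5 in that of experiment 2 (35.2 ± 10.9, SD, n = 2). The PEDF libraries had 38.2 and 35.1 CPM (36.6 ± 2.17, SD, n = 2) and lay between the controls. The log2 ratio of PEDF to control was -0.17 in experiment 1 (95% counting interval -0.33 to -0.01) and 0.35 in experiment 2 (0.18 to 0.52), so the intervals lay on opposite sides of 0. Over both experiments, the fitted difference on the log2 scale was 0.06 (standard error 0.21, adjusted p = 0.966 in edgeR). Counting intervals here are exact binomial intervals, compare 2 libraries and not the treatments, and cover counting error only. Cebpb overlaps the opposite strand gene Tmem189 over 908 bp, and Cebpd overlaps Spidr over 1808 bp. The strand setting of the authors' counting is not given in the sources used here, so the counts of both are less certain than those of genes without overlap.

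Cebpd, the other early factor (chromosome 16, 15887286 to 15891031), had 52.2 and 48.2 CPM in control MEFs and 56.6 and 46.9 CPM in PEDF-treated MEFs of experiments 1 and 2. Its groups overlapped, and the fitted log2 difference was 0.04 (standard error 0.10, adjusted p = 0.946 in edgeR). The 95% interval of -0.16 to 0.25 leaves out changes as large as that fitted for Cebpa.

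Pparg, the nuclear receptor that drives fat cell formation, is found on chromosome 6 (115360951 to 115490399, plus strand). It had 53 and 54 counts in the control libraries and 41 and 61 counts in the PEDF libraries. These were 3.59 and 3.03 CPM against 2.64 and 3.42 CPM, and the groups overlapped. On the log2 scale the fitted difference was -0.12 (standard error 0.27, adjusted p = 0.947 in edgeR). At this depth the 95% interval, -0.70 to 0.47, allowed a fall or a rise of the size seen for Cebpa.
Pparg has several starts, and the gene counts do not tell its isoforms apart. The stretch before the third RefSeq start in the table (GRCm38.p6, chr6:115421816-115422065, plus strand) is shown because it was the only one of the 10 promoter stretches found for these genes with a C/EBP site, a sequence that the products of the Cebp genes can bind. Capitals mark C/EBP sites at positions -215 and -16 from the start and CCAAT boxes at -144 and -22.
Pparg: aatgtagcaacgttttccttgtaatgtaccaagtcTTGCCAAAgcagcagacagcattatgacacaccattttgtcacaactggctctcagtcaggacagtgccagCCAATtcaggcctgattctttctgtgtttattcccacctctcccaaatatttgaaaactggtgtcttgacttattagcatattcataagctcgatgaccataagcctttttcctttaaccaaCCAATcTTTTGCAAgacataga
The C/EBP motif was found in 9.56% of all promoter stretches and CCAAT in 33.8%. Promoter stretches were found for 6 of the 10 genes. The hexamer AGGTCA, in 14.0% of all stretches, was found once before both other starts of Pparg and once before Plin2, and the direct repeat, in 0.0335% of all stretches, before none of the 6 genes. A match describes the letters only and is not evidence of binding.

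**Figure D2:**
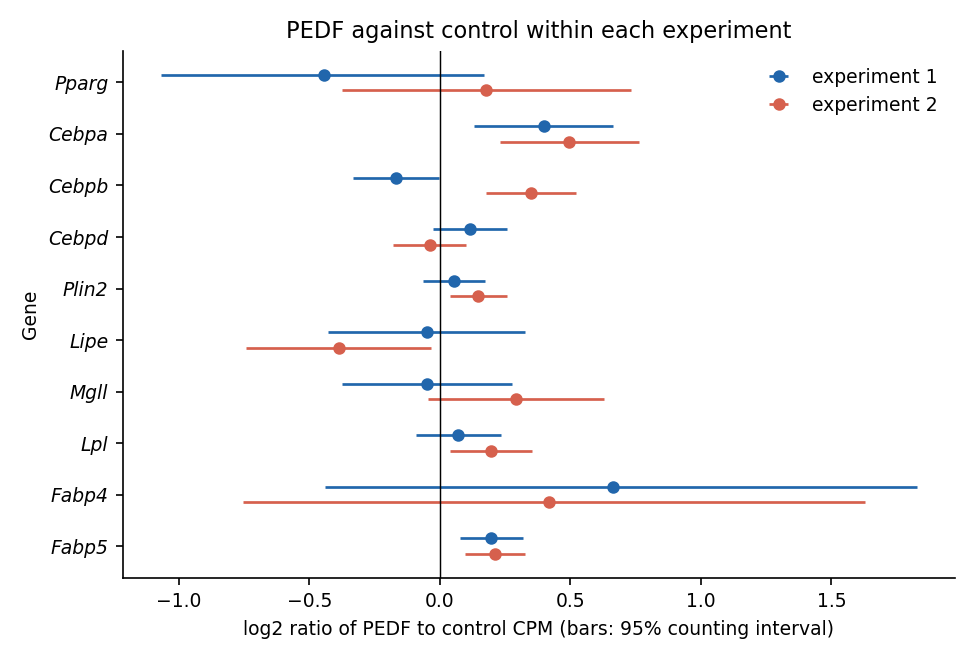
Log2 ratio of the PEDF to the control library for each of the 10 genes in experiments 1 and 2, with 95% counting intervals as bars. Cebpa and Fabp5 have intervals above 0 in both experiments, and the intervals of Cebpb lie on opposite sides of 0.

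None of the lipase genes passed the test. Lpl, the lipase that frees fatty acids from circulating lipoproteins (chromosome 8, 68880491 to 68907448), had 40.2 and 34.9 CPM in the control libraries of experiments 1 and 2. With PEDF it had 42.2 and 40.0 CPM, higher within each experiment, although the groups overlapped. Its log2 fold change was 0.13 (standard error 0.09, adjusted p = 0.794 in edgeR) and 0.13 (adjusted p = 0.462) with the block. Leaving out control replicate 2 brought it to 0.03 and leaving out control replicate 1 to 0.23. Lpl has the longest exons of the 10 genes, 10478 bp in sum, and with the trends of length and GC content removed its fitted log2 difference was 0.20 (adjusted p = 0.227 in edgeR).

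Lipe, the hormone-sensitive lipase that cuts diacylglycerol in the droplet (chromosome 7, 25379527 to 25398710, minus strand), was the 1 gene with both PEDF libraries below both control libraries. It had 8.06 and 8.80 CPM in control MEFs and 7.78 and 6.74 CPM in PEDF-treated MEFs. The 2 libraries of experiment 1 nearly coincided, with 119 control and 121 PEDF counts, and in experiment 2 the level with PEDF was lower at 120 counts against 157. With a fitted log2 difference of -0.22 (standard error 0.18, adjusted p = 0.814 in edgeR), its 95% interval ran from 0.661-fold to 1.11-fold. With single libraries left out the difference lay between -0.33 and -0.12, the latter without PEDF replicate 2. Lipe lies within the span of the antisense gene 4732471J01Rik, which had 51 to 71 counts in a library.

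Mgll, which completes lipolysis by cutting monoacylglycerol (chromosome 6, 88724412 to 88828360), had 10.7 and 7.57 CPM in control MEFs and 10.4 and 9.26 CPM in PEDF-treated MEFs. The groups overlapped, and the control library of experiment 2 was the lowest. Its log2 fold change was 0.11 (standard error 0.18, adjusted p = 0.926 in edgeR).

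Plin2, the perilipin that coats droplets in most cell types (chromosome 4, 86648386 to 86670060, minus strand), had 74.1 and 71.5 CPM in control MEFs. With PEDF it had 76.9 and 79.3 CPM, so its groups did not overlap. The difference was small, at 0.10 on the log2 scale (standard error 0.08, 95% interval -0.06 to 0.27, adjusted p = 0.802 in edgeR).

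Fabp5, a fatty acid-binding protein of many cell types that also carries ligands to nuclear receptors (chromosome 3, 10012548 to 10016607), had 67.8 CPM in the control library of experiment 1 and 62.8 in that of experiment 2 (65.3 ± 3.52, SD, n = 2). The PEDF libraries had 77.8 and 72.7 CPM (75.3 ± 3.57, SD, n = 2). Both PEDF libraries were above both control libraries, by 14.7% in experiment 1 and 15.7% in experiment 2. Without the block, its log2 fold change of 0.20 (standard error 0.08) had an adjusted p of 0.696 in edgeR. With the block it was 0.20 (standard error 0.06), a 1.15-fold rise with a 95% interval of 1.06 to 1.26 and an adjusted p of 0.0376. DESeq2 with the same block gave 0.20 with a standard error of 0.12, an unadjusted p of 0.0917 and no adjusted p, so this call too was made by edgeR alone. With the correction for length and GC content the edgeR value was 0.17 (standard error 0.06) with an adjusted p of 0.124.

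Fabp4, the adipocyte fatty acid-binding protein (chromosome 3, 10204088 to 10208576, minus strand), rested on 12 counts in each control library and on 20 and 16 counts in the PEDF libraries of experiments 1 and 2. These were 0.813 and 0.673 CPM against 1.29 and 0.898 CPM. The groups did not overlap, but both counting intervals included 0 (-0.44 to 1.83 and -0.76 to 1.63 on the log2 scale). Its fitted log2 difference of 0.55 (standard error 0.52, adjusted p = 0.856 in edgeR) was larger than that of Cebpa, but with a 95% interval from 0.685-fold to 3.13-fold a difference was not detectable at this depth. It was 0.28 without PEDF replicate 1 and 0.79 without PEDF replicate 2.

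Counted together, none of the 10 genes was called (adjusted p under 0.05) by edgeR without the block, where 0.00516% of all genes tested were. Before adjustment, 2 of the 10 genes, Cebpa and Fabp5, had a p under 0.05 in edgeR, compared with 6.88% of all genes tested. In DESeq2 without the block, also with no adjusted p under 0.05, Cebpa was the 1 gene of the 10 with an unadjusted p under 0.05, compared with 1.46% of all genes. With the block, Cebpa and Fabp5 were called higher and none of the 10 lower, against 3.75% of all genes called in either direction and 1.67% called higher. In DESeq2 with the block none of the 10 genes had an unadjusted p under 0.05, compared with 1.66% of all genes. In edgeR with length and GC trends also removed, Cebpa alone was called, against 2.09% of all genes called in either direction and 0.929% called higher. Without any overlap between the groups, 4 of the 10 genes (Cebpa, Plin2, Fabp4 and Fabp5) were higher with PEDF and 1 (Lipe) was lower, compared with 18.9% and 18.4% of all genes. On the log2 scale, the median difference of the 10 genes was 0.11 with the block, beside 0.00226 over all genes tested, and 8 of the 10 values were positive, compared with 50.4% of all genes. In both experiments separately, 5 of the 10 genes were higher with PEDF, the 4 named and Lpl, compared with 30.1% of all genes tested. The control library of experiment 2 had the lowest CPM of the 4 libraries for 7 of the 10 genes, Cebpa and Fabp5 among them, compared with 30.1% of all genes tested.

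**Figure D3:**
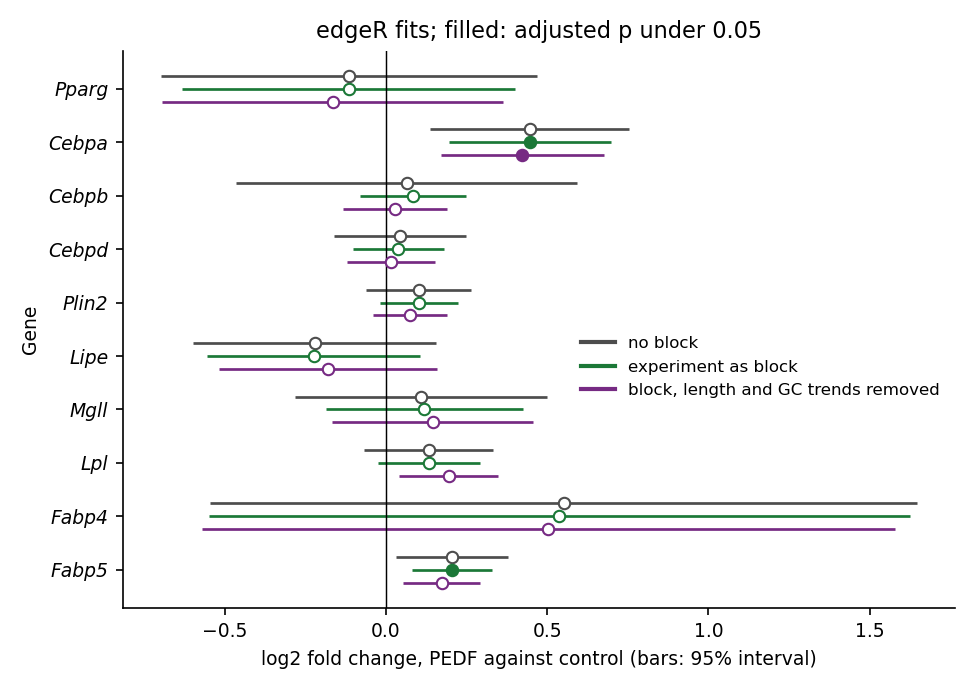
Log2 fold change of PEDF against control with 95% intervals for the 10 genes, from edgeR without the block (gray), with the experiment as a block (green) and with length and GC trends also removed (purple). Filled symbols have an adjusted p under 0.05: Cebpa with the block in both fits and Fabp5 with the block before the trends were removed.

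Experiments 1 and 2 were also compared, with the treatment as a second term in the same edgeR test. Each experiment used its own embryos, so its 2 libraries are not replicate preparations. The embryos cannot be told apart from other differences between the experiments. Cebpb was lower in experiment 2, by a fitted log2 difference of -0.38 (standard error 0.08, adjusted p = 6.98e-04), and it was the 1 gene of the 10 that was called, against 4.49% of all genes called in either direction and 2.19% called lower in experiment 2. Without the treatment term the difference stayed at -0.37 but the call was lost (standard error 0.12, adjusted p = 0.488 in edgeR), and DESeq2 gave an unadjusted p of 0.0357 and no adjusted p. With single libraries left out, in edgeR fits that also lack the treatment term, the difference was -0.56 without PEDF replicate 2 (adjusted p = 0.00138). It was -0.21 without control replicate 2, -0.29 without control replicate 1 and -0.45 without PEDF replicate 1, with adjusted p values of 0.624 to 1.00 in edgeR. Between the control libraries its log2 ratio of experiment 2 to experiment 1 was -0.64 (95% counting interval -0.81 to -0.47), and between the PEDF libraries it was -0.12 (-0.29 to 0.04). Cebpd (log2 fold change -0.19, adjusted p = 0.107) and Mgll (-0.33, adjusted p = 0.284) were not called. Of the 10 genes, 9 had a negative value, compared with 49.8% of all genes, and Pparg a positive one (0.06). Cebpa also had a negative value (-0.24, adjusted p = 0.367 in edgeR), smaller in size than its difference with PEDF, whereas for Cebpb the difference between experiments was the larger.

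The enzymes and regulators around these genes were taken as 5 lists. Of their 90 genes, each counted once, 78 were tested, and edgeR called none of them, with or without the block. Without the block, 4 of the 78 had an unadjusted p under 0.05 in edgeR, beside the 6.88% of all genes, and with the block 11 did, beside 14.6% of all genes. With length and GC trends removed, Dlk1 was the 1 gene called, beside 2.09% of all genes (adjusted p = 0.0423 in edgeR, log2 fold change 0.13). In DESeq2 none of them had an adjusted p or an unadjusted p under 0.05 in either fit, although with the block DESeq2 set no adjusted p for 85 of 88 genes.

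The lipid droplet and lipolysis list had 18 tested genes, of which 12 had a positive value with the block, and their median was 0.08 on the log2 scale. Pnpla2, which encodes ATGL, the lipase that opens triglyceride breakdown, was at 20.9 and 22.8 CPM in control MEFs and at 24.2 and 21.3 CPM in PEDF-treated MEFs. Its groups overlapped, and the fitted log2 difference was 0.06 (standard error 0.12, adjusted p = 0.942 in edgeR). Abhd5, the co-activator of ATGL, had 32.4 and 29.4 CPM in control MEFs and 37.3 and 36.5 CPM with PEDF. Its log2 difference was 0.26 (standard error 0.09, unadjusted p = 0.0143, adjusted p = 0.696 in edgeR), and the adjusted p was 0.0620 with the block. G0s2, the inhibitor of ATGL, had 28 and 36 counts in the control libraries and 51 and 48 counts in the PEDF libraries. Its groups did not overlap, with the higher control library at 2.02 CPM and the lower PEDF library at 2.69 CPM. On the log2 scale the fitted difference was 0.60 (standard error 0.31, adjusted p = 0.739 in edgeR, or 0.352 with the block). Thus the RNAs of the activator and of the inhibitor of ATGL both had positive values, and neither passed the test. Rab18, a GTPase of the droplet surface, differed by 0.17 on the log2 scale (standard error 0.07, unadjusted p = 0.0286 in edgeR) and an adjusted p of 0.0519 with the block, just above the threshold. Among the highest of this list, Plin3, a perilipin of newly formed droplets, had a log2 difference of 0.18 (adjusted p = 0.739 in edgeR) without and 0.19 (adjusted p = 0.0848) with the block, and Aup1, a protein of the endoplasmic reticulum and the droplet, had -0.01. The perilipin Plin1 and the fusion proteins Cidea and Cidec, which belong to fat cells with large droplets, had 5 counts or fewer over all 4 libraries.

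The adipogenic regulators, 22 genes tested, had 8 positive and 14 negative values with the block and a median of -0.02. Their highest members were Srebf1, a factor of lipid synthesis, with a log2 difference of -0.08 (adjusted p = 0.871 in edgeR), and Klf4, an early activator of Cebpb, with 0.01 (adjusted p = 0.991). Egr2, which acts early with Klf4, was at 9.15 and 10.8 CPM in control MEFs and at 7.85 and 7.63 CPM in PEDF-treated MEFs, which gave a log2 difference of -0.37 (unadjusted p = 0.0460, adjusted p = 0.719 in edgeR). The anti-adipogenic regulators, 13 of 14 tested, had a median of 0.04. Dlk1 (Pref-1), which keeps preadipocytes from maturing, was the highest gene of all lists at 334 TPM. It had 643 and 646 CPM in control MEFs and 691 and 689 CPM in PEDF-treated MEFs, groups that did not overlap, with a log2 difference of 0.10 (standard error 0.07, adjusted p = 0.789 in edgeR, or 0.214 with the block). Hes1, a Notch target, had 0.03. Klf7, another inhibitor, had -0.21 (standard error 0.09, unadjusted p = 0.0315, adjusted p = 0.696 in edgeR). Abhd5, Rab18, Egr2 and Klf7 are the 4 genes with an unadjusted p under 0.05, and all but Abhd5 were named after their values had been seen.

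Of the fatty acid uptake and binding genes, 12 of 16 were tested, and their median with the block was 0.04 on the log2 scale. The fatty acid-activating enzymes Acsl3 (0.05) and Acsl5 (-0.01) were highest. Gpihbp1, which holds lipoprotein lipase on capillary walls, had no count in any library. Among known PPAR targets, 16 of 19 were tested and the median was 0.06. The enzymes of fatty acid oxidation Acadl (0.09, adjusted p = 0.872 in edgeR) and Acaa1a (0.15, adjusted p = 0.756, or 0.134 with the block) were highest.

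**Figure D4:**
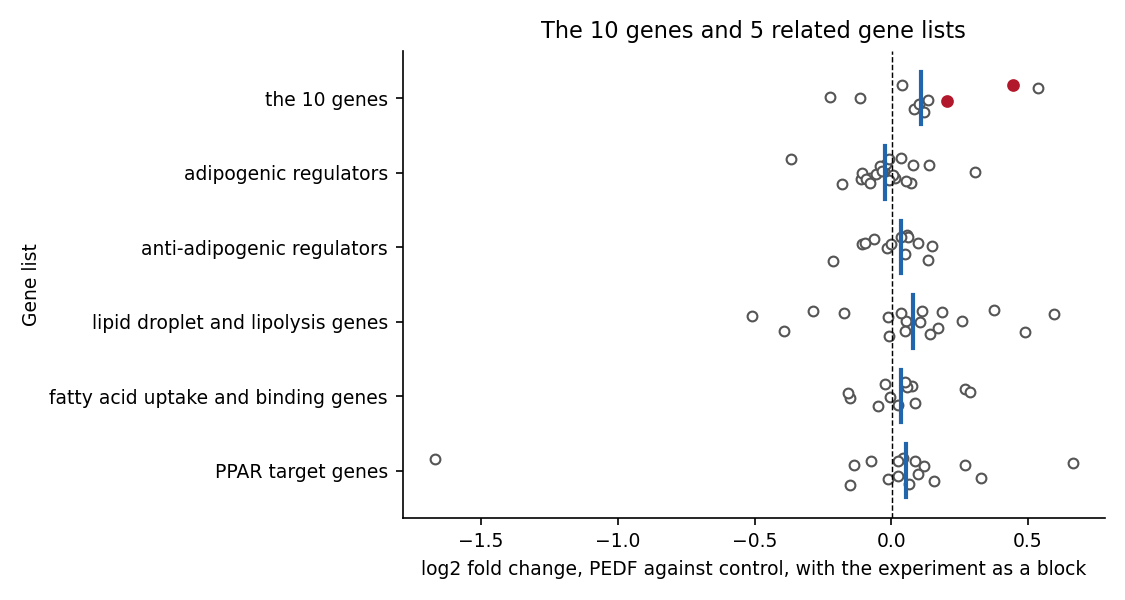
Log2 fold change of PEDF against control with the experiment as a block for the 10 genes and the tested genes of the 5 lists; each circle is 1 gene, blue bars are list medians and the dashed line is the median of all genes tested. Filled red circles have an adjusted p under 0.05, which only Cebpa and Fabp5 have; the medians of the lists lie between -0.02 and 0.08 and that of the 10 genes at 0.11.

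The label of the cells was checked against marker genes. All 10 fibroblast markers were detected. Their sum was 14572 TPM in the control and 13138 TPM in the PEDF library of experiment 1, and 17410 and 14908 TPM in those of experiment 2, so it was lower with PEDF in both. Col1a1 made up most of the sum, going from 8332 to 7226 TPM in experiment 1 and from 10587 to 8469 TPM in experiment 2. Dcn, Lum and Thy1 were higher with PEDF in both experiments. With the block, 2 of the 10 markers (Dcn and Lum) were called higher and 3 (Col1a1, Col1a2 and Pdgfrb) lower with PEDF, beside 3.75% of all genes, and without it none. With length and GC trends removed, Col1a2 was no longer called (-0.000814 on the log2 scale, adjusted p = 0.997 in edgeR) and the other 4 were. Of 12 adipocyte markers, 3 were tested. The sum of all 12 went from 10.4 to 8.80 TPM with PEDF in experiment 1 and from 9.71 to 10.2 TPM in experiment 2. Slc2a4 made up most of it, going from 9.22 to 7.61 TPM in experiment 1 and from 7.37 to 8.54 TPM in experiment 2. Adipoq, Lep and Cfd had no count, for which up to 3 counts in a library are allowed by counting error. The sum of 10 endothelial markers was 10.9 to 11.5 TPM, with Tie1 and Cldn5 at 0. All 12 macrophage markers were detected. Their summed level was 317 TPM in the control library and 323 TPM in the PEDF library of experiment 1, and 193 and 270 TPM in those of experiment 2. Lyz2 (lysozyme) was the 1 macrophage marker called with the block (log2 fold change 0.39, adjusted p = 2.01e-05 in edgeR, and 0.198 with length and GC trends removed), and none was called without it.
In experiment 1 the macrophage sum was thus 1.71% higher with PEDF while Cebpa was 31.7% and Fabp5 14.7% higher. In experiment 2 it was 40.1% higher, with Cebpa 41.0% and Fabp5 15.7% higher. Lyz2 made up much of that sum, with 57.8 TPM in the control and 100.9 TPM in the PEDF library of experiment 2. In experiment 1 Lyz2 barely differed, with 129 TPM in the control and 130 TPM in the PEDF library, so its call rests on experiment 2. Without Lyz2, a sum chosen after seeing the data, the other 11 markers were 2.41% higher in experiment 1 (5 of 11 higher) and 25.4% higher in experiment 2 (9 of 11 higher, with Csf1r and Ptprc lower). Cebpa, Cebpb and Fabp5, like the macrophage sum, were each lowest in the control library of experiment 2. Whether macrophage RNA contributes to the differences of either experiment was not tested.

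**Figure D5:**
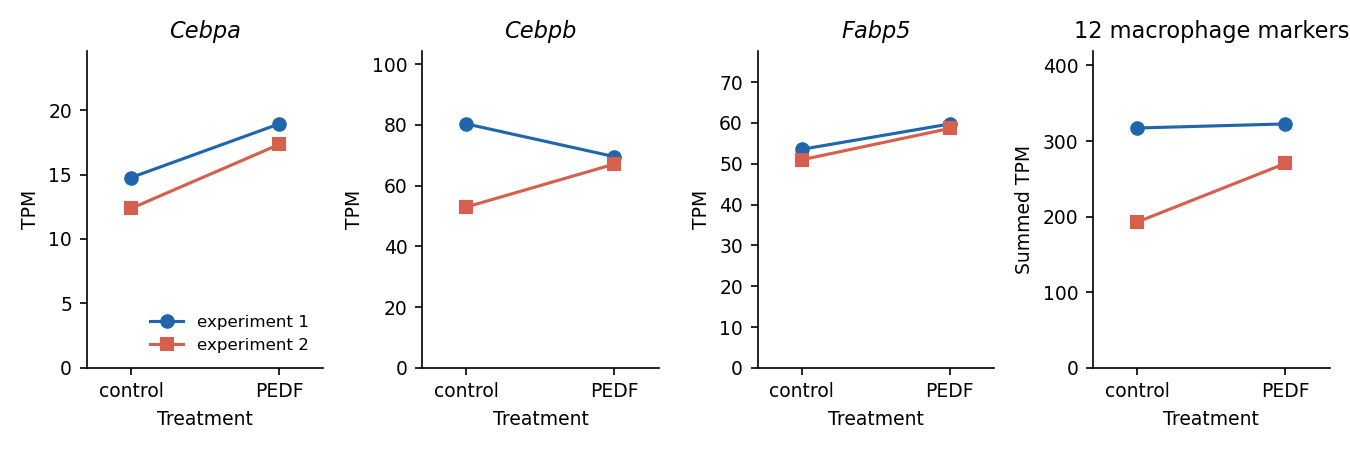
Levels of Cebpa, Cebpb and Fabp5 (TPM) and the summed TPM of 12 macrophage markers in control and PEDF-treated MEFs, with a line joining the libraries of experiment 1 (blue) and experiment 2 (red); axes start at 0. In experiment 1 Cebpa and Fabp5 rise while the macrophage sum moves from 317 to 323 TPM, and all 4 quantities have their lowest value in the control library of experiment 2.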

How the data were processed

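Polyadenylated RNA of MEFs was made into directional libraries and sequenced from both ends. Per the submitters' processing notes and the methods, the authors used FastQC 0.11.7, Trimmomatic 0.38, HISAT2 2.1.0, SAMtools 1.9 and featureCounts 1.6.3 with build mm10, and deposited raw counts of uniquely mapped reads per gene. The annotation release and strand setting are not given in the sources used here. The deposited TPM values sum to 1000000 in each library, and how the authors made them is not described. The gene lengths they imply equal the summed exons of GENCODE M21 (GRCm38) within 1 bp for 98.3% of 26133 genes. Every row named a gene.

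Genes with at least 10 counts in total were tested in R 4.3.3 with edgeR 4.0.16 (TMM, robust quasi-likelihood test, Benjamini-Hochberg over all genes tested), without a covariate. Standard errors came from the log2 fold change and its F statistic. The experiment was fitted as a block, since by the series' design text the experiments drew on different embryos. Across the 10722 genes above 3 in mean log2 CPM, the deviations of experiment 2 from experiment 1 in the control pair correlated with those in the PEDF pair (r = 0.423; genes are not replicates). This block leaves 1 residual degree of freedom, so the spread is borrowed from other genes. Where stated, trends of each library with exon length and transcript GC content were removed as offsets, from natural splines with 5 degrees of freedom.

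Other alternatives were DESeq2 1.42.0 with and without the block, RLE factors, no filter (at least 1 count), filterByExpr, limma 3.58.1 on log2(TPM + 1) and log2(TPM + 0.1), and each library left out. The fits were tested on simulated data. The 10 genes, lists and tests were chosen with earlier results of these data known. Beside the 10 genes, those named were Pnpla2, Abhd5, G0s2, any list gene with an adjusted p under 0.05 without or with the block and, for lists with none, the 2 with the highest mean TPM. Others are named as chosen after their values were seen, as are the genes at 0 and those with few counts. Ddit3 has 2 entries in the table, of which the one with counts was used. Promoters are from RefSeq (GRCm38.p6). P-values set a difference against a spread that is estimated from these 4 cultures and partly borrowed from other genes.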

Additional observations from a re-analysis of the deposited data

Results flagged for a closer look

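The PEDF differences of 4 genes went in opposite directions in experiments 1 and 2. With 1 library of each treatment in an experiment, these differences between the experiments were not tested. The log2 ratio of PEDF to control in experiment 2 minus that in experiment 1 was 0.62 for Pparg (-0.45 and 0.18 in experiments 1 and 2), 0.52 for Cebpb (-0.17 and 0.35), 0.34 for Mgll (-0.05 and 0.29) and -0.16 for Cebpd (0.12 and -0.04). Only for Cebpb did the counting intervals of both experiments exclude 0. The control library of experiment 2 was the lowest of the 4 libraries for 7 of the 10 genes, Cebpb and Mgll among them.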

How the results depend on the processing

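Without the block, no alternative gave any of the 10 genes an adjusted p under 0.05. Fitted with the replicate block, the number was 2 (Cebpa and Fabp5) in edgeR, 1 (Cebpa) with length and GC trends also removed, and 0 in DESeq2, which set no adjusted p for the 10 genes there and gave none an unadjusted p under 0.05 (Cebpa 0.0746, Fabp5 0.0917). In edgeR the block changed no other call for the 10 genes or the lists. Between experiments the number was 1 (Cebpb), and 0 without the treatment term and in DESeq2, where no adjusted p was set. It was 0 to 1 when single libraries were left out, fits that also lack the treatment term; beside the 0 of that fit with every library, the number differed without PEDF replicate 2 (1). For the lists it was 0, and 1 (Dlk1) with the block and length and GC trends removed. The 5 genes higher with PEDF in both experiments were also 5 with RLE factors, with TPM and with library totals, scalings chosen after seeing the data. Leaving out single libraries changed the sign for Pparg (-0.32 to 0.05), Cebpb (-0.23 to 0.41), Cebpd (-0.10 to 0.17) and Mgll (-0.13 to 0.37), and Cebpa stayed between 0.30 and 0.59 and Fabp5 between 0.15 and 0.26. The sign of Pparg changed without control replicate 1 (0.01) or PEDF replicate 1 (0.054), of Cebpb and Mgll without control replicate 2 (-0.23 and -0.13), and of Cebpd without PEDF replicate 1 (-0.10) or control replicate 2 (-0.02). Adjusted p values over the alternatives spanned 0.0197 to 1.00 for Cebpa and 0.0376 to 1.00 for Fabp5. Leaving out a library with the block leaves no residual degrees of freedom and was not run. Few counts limit Fabp4 and Pparg.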
